A study of Mus musculus with 5 samples.

Results

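The general RNA decay machinery was followed in nephron progenitor cells that lack Dis3l2. The set holds 48 listed genes of the RNA exosome, the SKI complex, the 5'-to-3' exoribonucleases, deadenylation, decapping, the Lsm1 to Lsm7 ring and nonsense-mediated decay (NMD), together with the uridylyltransferase genes Zcchc11 (now Tut4) and Zcchc6 (now Tut7). The gene list was chosen with earlier results of these data known. Its genes were matched by symbol, and all 50 were found among the 53927 genes of the deposited table. Of these, 49 passed the filter for testing, which asked for at least 0.5 CPM (read counts scaled to library size) in at least 2 libraries and kept 14884 genes in all. The remaining gene, Exosc6, was listed at 0 in every library.

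The cells were Dis3l2-/- (KO, 3 libraries) or Dis3l2+/+ (WT, 2 libraries) primary nephron progenitors, the self-renewing precursors of nephrons, taken from C57BL/6J mouse embryos and passaged 1 time in culture. Stranded total RNA libraries were read from a single end. The labels name no embryonic stage, do not say which part of Dis3l2 was removed, and do not say whether each library came from its own embryo, so the tests below see only library-to-library spread, part of which may be technical. The question put to these genes was whether the level of any decay pathway differs once the Dis3l2 nuclease is missing.

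Dis3l2 was lower in the KO libraries (6.50, 4.93 and 4.70 CPM) than in the WT libraries (16.04 and 12.18 CPM), with no overlap. The log2 fold change was -1.24 (SE 0.21, 95% interval -1.74 to -0.75), with an unadjusted p of 0.000616 and an adjusted p of 0.954 (limma). The authors' deposited table gives Dis3l2 a log2 fold change of -1.38, a p-value of 1.74e-06 and an FDR of 0.00855. The number of assigned reads, worked out from the smallest increments in each column, was 19.61 M to 49.25 M reads in KO and 22.34 M and 28.26 M in WT. Mitochondrial rRNA took 31.5% to 32.9% of the summed values in KO, against 38.9% and 40.7% in WT, and the 7SK RNA Rn7sk took 2.27% to 11.87% in KO, against 3.51% and 3.83% in WT. Xist was at 872 and 765 CPM in KO replicates 1 and 2 and at 0.52 CPM in KO replicate 3, against 0.93 and 951 CPM in WT replicates 1 and 2. The 10 nephron progenitor markers summed to 745 to 894 CPM in KO and to 730 and 928 CPM in WT. Among them Six2 reached 18.58 to 31.86 CPM in KO and 18.82 and 18.97 CPM in WT, while Pax2 lay at 0.21 to 0.66 CPM in KO and at 0.05 and 0.18 CPM in WT. Most of the progenitor sum came from Itga8 (355.95 to 471.15 CPM in KO, 437.79 and 440.75 CPM in WT) and Eya1 (193.96 to 248.49 CPM in KO, 274.33 and 167.84 CPM in WT). Some markers of this list were less even than its sum. Sall1 had 87.99, 49.62 and 47.92 CPM in KO and 81.66 and 37.00 CPM in WT. Cited1 had 17.05, 4.74 and 2.73 CPM in KO and 15.16 and 1.40 CPM in WT. Crym had 10.72, 3.34 and 2.26 CPM in KO and 16.93 and 2.35 CPM in WT. Osr1, at 41.47, 64.56 and 27.32 CPM in KO and 22.26 and 19.48 CPM in WT, was higher in every KO library. The other tested markers of the list overlapped between genotypes. The 6 renal stroma markers summed to 419 to 623 CPM in KO and to 474 and 868 CPM in WT, although the stromal regulator Foxd1 was at 0.13 to 0.25 CPM throughout. Podocyte, ureteric bud, leukocyte and skeletal muscle marker sums stayed at 15.7 CPM or less in every library, and the endothelial sum at 36.8 CPM or less.

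Messenger RNA decay usually begins at the tail. The CCR4-NOT and PAN2-PAN3 deadenylases and PARN shorten the poly(A) tail, after which the body is destroyed from either end. In the 5'-to-3' route the Lsm1 to Lsm7 ring binds the shortened tail, Dcp2 with its cofactors removes the cap, and Xrn1 digests the RNA. In the 3'-to-5' route the SKI complex feeds RNA to the cytoplasmic exosome. NMD adds a surveillance step that sends transcripts with premature stop codons into the same routes. Dis3l2 works beside the exosome and on its own: the uridylyltransferases Tut4 and Tut7 add a short U tail, and Dis3l2 degrades the marked RNA. In mouse stem cells its known substrates include uridylated pre-let-7.

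No gene of the set passed the test between genotypes. Of the 49 tested, 0 had an adjusted p under 0.05 (limma with Benjamini-Hochberg adjustment), where the share over all genes tested was 0.00672%. At an unadjusted p under 0.05 there were also 0, against 1.5% of all genes higher and 1.27% lower (2.77% in either direction). By the authors' deposited table, none of the members had an FDR under 0.05 (0.0315% of all genes there), and none had a p-value under 0.05 (3.03% of the genes tested here). The log2 fold changes of KO over WT, on the log2(CPM + 1) scale, ran from -0.16 for Upf3b to 0.43 for Exosc4. Their median was 0.01, equal to the median of 0.01 over all genes tested, and 27 of 49 were above 0 (52.9% over all genes). These are bulk levels, in which fewer cells of a type and less RNA per cell cannot be told apart.

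The intervals give the sizes of change that these libraries could not resolve. For 48 of the 49 genes the 95% interval of the log2 fold change lay wholly within -1 and 1, as it did for 90.4% of all genes tested. The exception was Lsm5, whose interval ran from -0.33 to 1.17. These bounds are a 2-fold difference in CPM + 1. For low genes a 2-fold difference in CPM is less than 1 on that scale and can lie inside the interval. With a pseudocount of 0.5 the count was 46. For 36 of 49 the interval also lay within a 1.5-fold difference in CPM + 1, against 55% of all genes. Among genes whose mean lay in the members' range of 1.8 to 186 CPM these shares were 90.1% and 55.5%. The within-genotype SD on the log2(CPM + 1) scale ran from 0.047 for Exosc9 to 0.52 for Lsm4, with a median of 0.17, against a median of 0.19 over all genes. Of the 49 genes, 48 had at least 100 reads in every library, and the range over all 49 was 27 to 9291 reads. The part of counting error in the within-genotype spread was not tested.

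**Figure D1:**
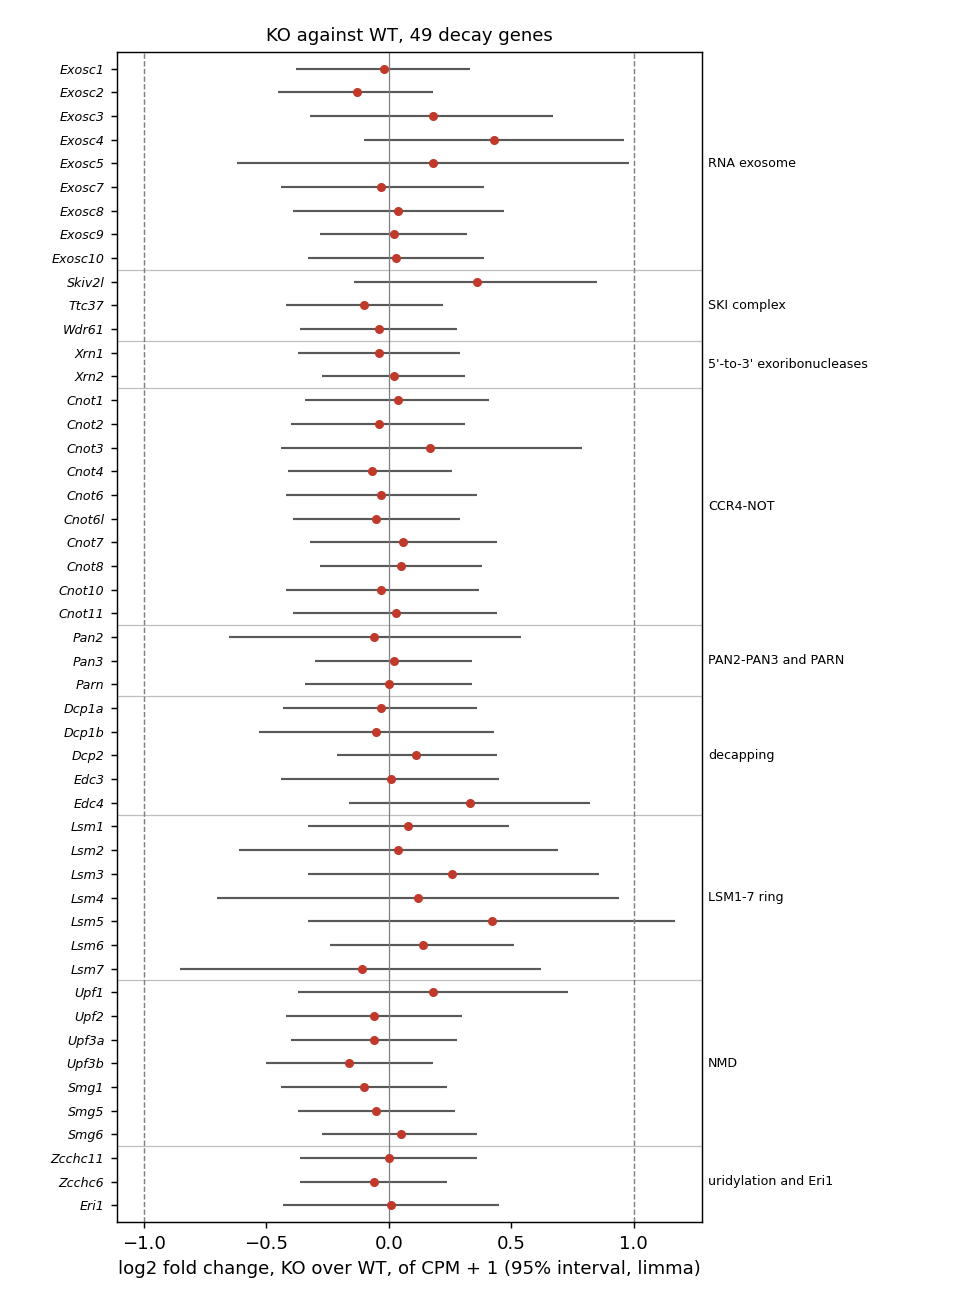
Log2 fold change of KO over WT for the 49 tested decay genes on the log2(CPM + 1) scale (points) with its 95% interval from limma (lines), grouped by pathway from top to bottom; dashed lines mark -1 and 1. Every interval crosses 0, and Lsm5 alone extends past 1, to 1.17.

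The KO and WT libraries overlapped for 47 of the 49 genes. Exosc4 was the 1 gene whose KO libraries all exceeded both WT libraries, a pattern found in 7.85% of all genes tested. Exosc2 was the 1 gene with every KO library below both, found in 6.98% of all genes. With 3 KO and 2 WT libraries the smallest p of an exact two-sided permutation test of a single gene is 0.1, so no gene could be called that way.

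**Figure D2:**
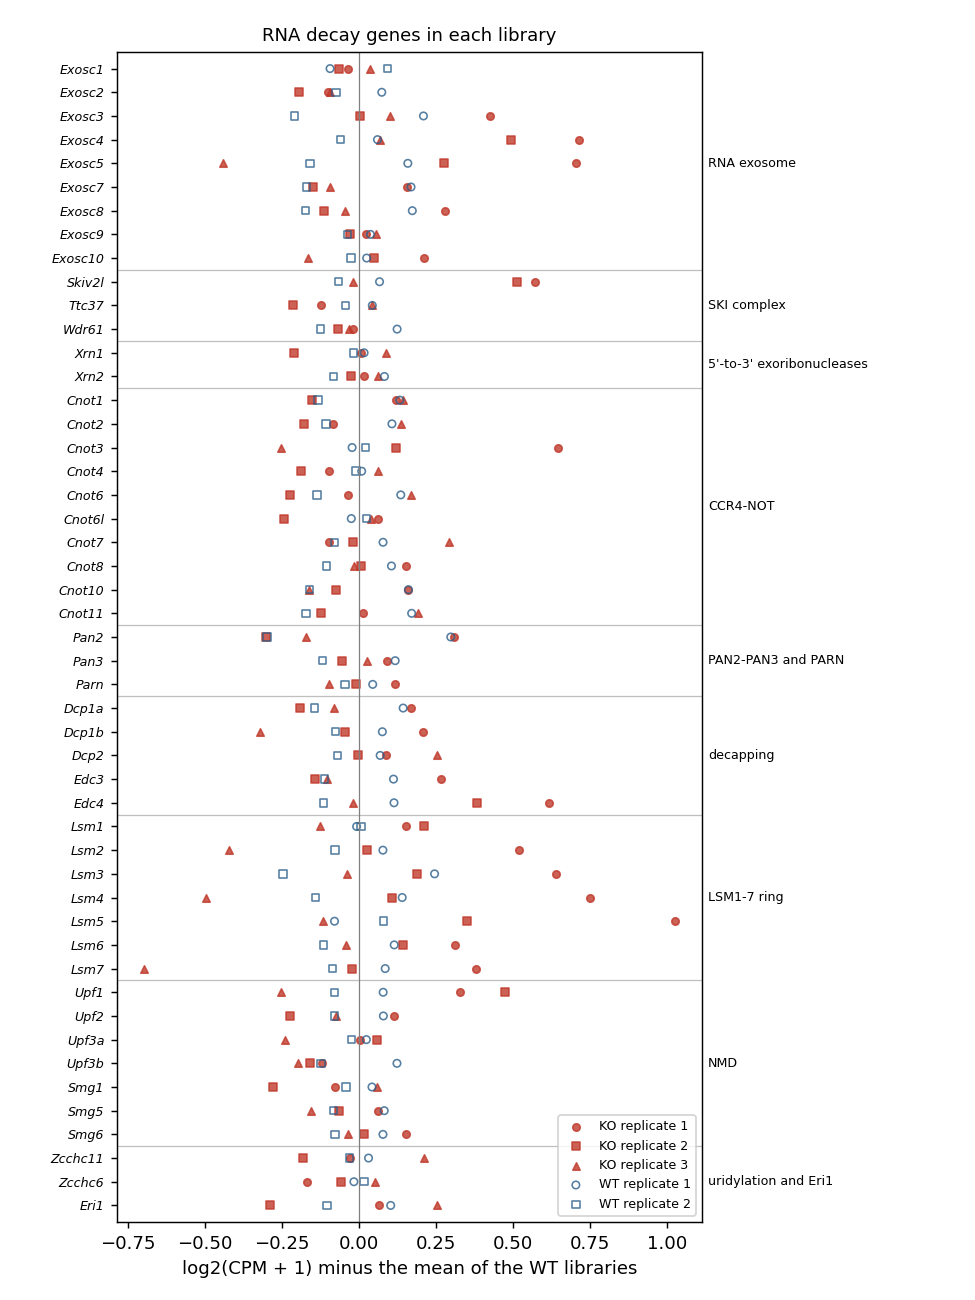
Each library's log2(CPM + 1) minus the mean of the WT libraries, for the 49 tested genes by pathway; filled red symbols are KO libraries and open blue symbols WT libraries. KO replicate 1 (circles) lies right of the WT mean for all 7 Lsm genes, and KO replicate 3 (triangles) lies well to the left for Lsm2, Lsm4 and Lsm7 and nearer the WT mean for the other Lsm genes, with a log2 ratio of KO replicate 3 over KO replicate 1 of -1.25 for Lsm4.

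The exosome is a barrel of 6 RNase PH-like subunits (Exosc4 to Exosc9) under a cap of 3 (Exosc1 to Exosc3). It has no nuclease activity of its own in mammals. Exosc10, the nuclear 3'-to-5' exonuclease bound to it, stood at 56.64, 50.46 and 43.31 CPM in KO, against 49.62 and 47.88 CPM in WT. The WT libraries lay inside the KO range, and the log2 fold change was 0.03 (SE 0.15, 95% interval -0.33 to 0.39). The cap subunit Exosc3 had 16.22, 11.85 and 12.74 CPM in KO, against 13.82 and 10.08 CPM in WT, and again overlapped. Exosc2, another cap subunit, had 27.09, 25.33 and 27.23 CPM in KO, against 30.74 and 27.63 CPM in WT. Its KO libraries lay below WT by a small margin, with a log2 fold change of -0.13 (SE 0.13, adjusted p = 1, limma).

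Exosc4, a ring subunit, had the smallest unadjusted p of the set (0.0991, limma). It stood at 12.91, 10.95 and 7.90 CPM in KO, against 7.84 and 7.13 CPM in WT. KO replicates 1 and 2 stood above both WT libraries, and KO replicate 3 was almost level with WT replicate 1. The log2 fold change was 0.43 with a 95% interval of -0.10 to 0.96 (SE 0.22, adjusted p = 1, limma). Of the exonic bases of Exosc4 in GENCODE M21, 19.8% lie opposite Oplah, and no source used here gives the strand setting of the counting. The ring subunit Exosc5 spread most within the complex, with 12.66, 9.14 and 5.17 CPM in KO, against 8.35 and 6.50 CPM in WT. Its KO libraries enclosed both WT values. The cap gene Exosc1 and the ring genes Exosc7 and Exosc8 had log2 fold changes between -0.03 and 0.04. Exosc9 was the steadiest of the 49 genes, at 30.98, 29.82 and 31.70 CPM in KO and 31.30 and 29.66 CPM in WT.

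Exosc6, the remaining ring subunit, cannot be read from this table. It is listed at 0 in all 5 libraries, while its neighbour Aars, the alanyl-tRNA synthetase gene, had 114, 118 and 103 CPM in KO and 98.86 and 106 CPM in WT. In GENCODE M21 (GRCm38) Exosc6 is a gene of 1 exon on chromosome 8, 111056339 to 111057664, plus strand, and 100% of its 1326 bases are also annotated as exon of Aars on the same strand. Of the 7 Aars transcripts there, 1 holds the whole Exosc6 transcript. No source used here gives the authors' annotation release or their treatment of reads that match exons of more than 1 gene. The first 90 coding bases of Exosc6, from GENCODE M21, are shown because each read from them matches both annotated genes; they cover chr8:111056371-111056460 and the capitals mark the start codon.
Exosc6: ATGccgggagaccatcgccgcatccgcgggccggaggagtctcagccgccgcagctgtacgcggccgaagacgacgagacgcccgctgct

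The SKI complex threads RNA into the cytoplasmic exosome. Skiv2l, its helicase, had 35.86, 34.43 and 23.47 CPM in KO, against 24.99 and 22.68 CPM in WT. KO replicates 1 and 2 were above both WT libraries and KO replicate 3 lay between them. The log2 fold change was 0.36 (SE 0.21, 95% interval -0.14 to 0.85, adjusted p = 1, limma). The scaffold Ttc37 had 54.11, 50.77 and 60.80 CPM in KO and 60.89 and 57.26 CPM in WT, a log2 fold change of -0.10. The WD-repeat subunit Wdr61 had 41.81, 40.36 and 41.34 CPM in KO and 46.23 and 38.76 CPM in WT, a log2 fold change of -0.04. Of its exonic bases 33.9% lie opposite Dnaja4. The helicase therefore had the highest and the scaffold the lowest log2 fold change within a complex of 3, and neither passed the test.

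The 5'-to-3' exoribonucleases were steady. Xrn1, the cytoplasmic enzyme that degrades decapped messages, had 59.73, 51.21 and 63.34 CPM in KO and 60.19 and 58.77 CPM in WT. Xrn2, the nuclear enzyme that also acts in transcription termination, had 92.42, 89.70 and 95.32 CPM in KO and 96.73 and 86.11 CPM in WT. Their log2 fold changes were -0.04 (95% interval -0.37 to 0.29) and 0.02 (95% interval -0.27 to 0.31). The sum of both genes was 141 to 159 CPM in KO and 145 and 157 CPM in WT.

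CCR4-NOT, the main deadenylase, had 10 listed subunits, of which 5 had a log2 fold change above 0 and 5 below, with a median of 0.00. All 10 overlapped between genotypes. The scaffold Cnot1 stood at 198, 164 and 201 CPM in KO and 199.63 and 165.84 CPM in WT. The catalytic subunits Cnot6 and Cnot6l, of the CCR4 type, had log2 fold changes of -0.03 and -0.05, and Cnot7 and Cnot8, of the CAF1 type, had 0.06 and 0.05. Their 95% intervals all lay between -0.42 and 0.44. Cnot4, a ubiquitin ligase subunit, had the lowest log2 fold change of the complex, -0.07, with 25.61, 23.98 and 28.73 CPM in KO and 27.64 and 27.28 CPM in WT.

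Cnot3 was the exception in spread. This regulatory subunit had 31.75, 21.77 and 16.55 CPM in KO, against 19.62 and 20.26 CPM in WT. The WT libraries were almost equal and the KO libraries fell on either side of them, so that its log2 fold change of 0.17 had a 95% interval of -0.44 to 0.79. The other deadenylases did not differ beyond their spread. Pan2, the catalytic subunit of PAN2-PAN3, was uneven in KO and in WT alike: it had 42.07, 27.20 and 29.86 CPM in KO and 41.78 and 27.28 CPM in WT. Its RNA-binding partner Pan3 had 73.46, 66.31 and 70.07 CPM in KO and 74.80 and 63.37 CPM in WT. The log2 fold change of Parn, a nuclear and cytoplasmic poly(A) ribonuclease, was 0.00 (95% interval -0.34 to 0.34), with means of 21.4 ± 1.69 CPM in KO (SD, n = 3) and 21.3 ± 0.98 CPM in WT (SD, n = 2).

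Among decapping genes, the catalytic Dcp2 had 117, 110 and 131 CPM in KO, against 115 and 105 CPM in WT, a log2 fold change of 0.11 (SE 0.14, 95% interval -0.21 to 0.44). The scaffold Edc4, which joins Dcp2 to its activators, had 59.20, 50.21 and 37.71 CPM in KO and 41.50 and 35.28 CPM in WT. As with Skiv2l, KO replicates 1 and 2 exceeded both WT libraries and KO replicate 3 lay between them, and the log2 fold change of 0.33 did not pass (95% interval -0.16 to 0.82, adjusted p = 1, limma). Of the exonic bases of Edc4, 8.3% are shared with Nrn1l on the same strand. The activators Edc3 and Dcp1a had log2 fold changes of 0.01 and -0.03. Dcp1b had the lowest level of the tested genes in CPM per kb of exon (0.279 in KO and 0.29 in WT), at 27 to 107 reads per library.

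The Lsm1 to Lsm7 ring, which holds the 3' end of deadenylated messages, was the least even group across libraries. Of its 7 genes 6 had a log2 fold change above 0, with a median of 0.12, against 0.01 over all genes, and all 7 overlapped between genotypes. That median was 0.04 without KO replicate 1, 0.02 without WT replicate 2, 0.27 without KO replicate 3 and 0.25 without WT replicate 1. Lsm5 had 42.62, 26.26 and 18.72 CPM in KO, against 19.24 and 21.59 CPM in WT, a log2 fold change of 0.42 (SE 0.31, adjusted p = 1, limma). Lsm3 had 25.15, 18.09 and 15.33 CPM in KO, against 18.87 and 13.13 CPM in WT, and Lsm4 had 28.19, 17.68 and 11.29 CPM in KO, against 18.13 and 14.74 CPM in WT. In each of them KO replicate 1 was the highest of the 5 libraries. Lsm6 spread less, with 46.50, 41.20 and 36.12 CPM in KO and 40.39 and 34.30 CPM in WT. Lsm7 had 18.33, 13.63 and 8.14 CPM in KO and 14.75 and 12.99 CPM in WT, with the KO libraries on both sides of WT and a log2 fold change of -0.11. Over the ring, KO replicate 1 was the highest library for 6 of 7 genes and KO replicate 3 the lowest for 5 of 7, where over all genes tested these shares were 28.2% and 24%. Lsm1, which sets the cytoplasmic ring apart from the nuclear one, was more even, with means of 11.4 ± 1.5 CPM in KO (SD, n = 3) and 10.7 ± 0.0849 CPM in WT (SD, n = 2).

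**Figure D3:**
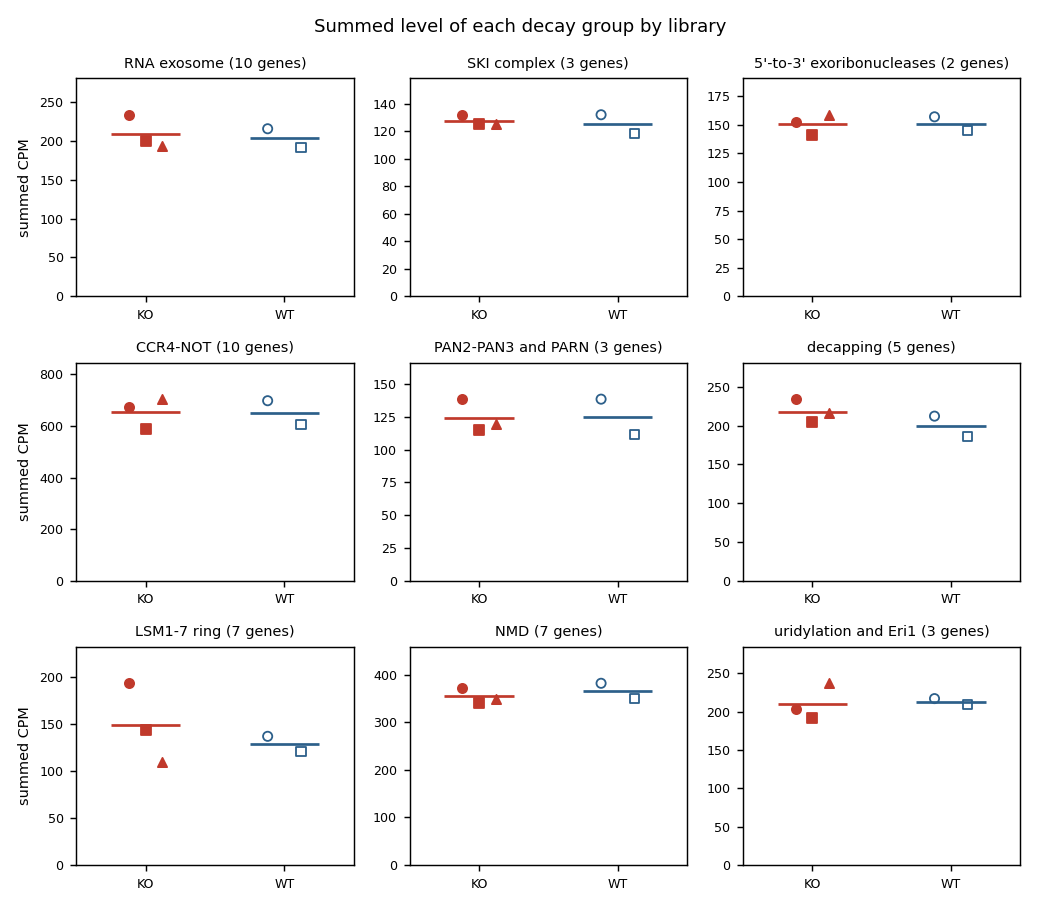
Summed CPM of each decay group in each library (red filled, KO; blue open, WT; circle, square and triangle are replicates 1, 2 and 3; bars are means; Exosc6 adds 0). The KO libraries of the Lsm ring spread from 109 to 193 CPM around WT sums of 121 and 137 CPM, more widely than in the other panels relative to the mean.

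The NMD genes had a median log2 fold change of -0.06, with 2 of 7 above 0. Upf1, the RNA helicase at the centre of the pathway, had 33.12, 36.74 and 21.77 CPM in KO, against 27.68 and 24.71 CPM in WT. KO replicates 1 and 2 were above and KO replicate 3 below both WT libraries, and the log2 fold change was 0.18 (SE 0.23, 95% interval -0.37 to 0.73). Smg1, the kinase that phosphorylates Upf1, had 141, 122 and 155 CPM in KO and 153 and 144 CPM in WT, a log2 fold change of -0.10. Smg6, the endonuclease of the pathway, had 43.28, 39.30 and 37.90 CPM in KO and 41.04 and 36.72 CPM in WT, and Smg5, an adaptor in dephosphorylation and decay, had 54.06, 49.40 and 46.41 CPM in KO and 54.86 and 48.83 CPM in WT. Several NMD factors are themselves known NMD targets in mammals, and the 7 genes had log2 fold changes between -0.16 and 0.18. Upf3b, which links Upf2 to the exon junction complex and lies on the X chromosome, had the lowest of all 49, with 21.95, 21.30 and 20.74 CPM in KO and 26.15 and 21.87 CPM in WT. KO replicate 1 lay just above the lower WT library and the other KO libraries below it. Its interval, -0.50 to 0.18, crossed 0.

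The messages of the enzymes that mark RNA for Dis3l2 did not differ between genotypes beyond their spread. Zcchc11 (Tut4) had 65.44, 58.88 and 77.54 CPM in KO, against 68.35 and 65.40 CPM in WT, with a log2 fold change of 0.00 and a 95% interval of -0.36 to 0.36. Zcchc6 (Tut7) had 85.28, 92.16 and 99.69 CPM in KO, against 94.92 and 97.10 CPM in WT, with a log2 fold change of -0.06 and a 95% interval of -0.36 to 0.24. Eri1, a 3'-to-5' exonuclease that trims histone messages and 5.8S rRNA, had 52.40, 40.76 and 59.86 CPM in KO, against 53.84 and 46.52 CPM in WT. Its log2 fold change was 0.01 (95% interval -0.43 to 0.45). The 3 genes together summed to 203, 192 and 237 CPM in KO and 217 and 209 CPM in WT, and the WT sums lay inside the KO range.

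Ratios of paralogs within a library do not depend on library scaling, and 6 pairs were compared. The ratio of Cnot7 to Cnot8 in CPM was 1.47, 1.72 and 2.17 in KO, against 1.71 and 1.78 in WT. Cnot6 to Cnot6l was 2.08, 2.26 and 2.44 in KO, against 2.49 and 1.99 in WT. The KO ratios of Cnot7 to Cnot8 lay on both sides of the WT ratios, and those of Cnot6 to Cnot6l lay between the WT ratios. Upf3a to Upf3b was 1.72, 1.84 and 1.53 in KO, against 1.46 and 1.69 in WT, and Zcchc11 to Zcchc6 was 0.767, 0.639 and 0.778 in KO, against 0.72 and 0.674 in WT. The KO minus WT differences of mean log2 ratios ran from -0.06 (Xrn1 to Xrn2) to 0.10 (Upf3a to Upf3b). None was called, with exact two-sided permutation p-values of 0.4 to 1, a Benjamini-Hochberg adjusted p of 1 over the 6 pairs, and a smallest possible p of 0.1.

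**Figure D4:**
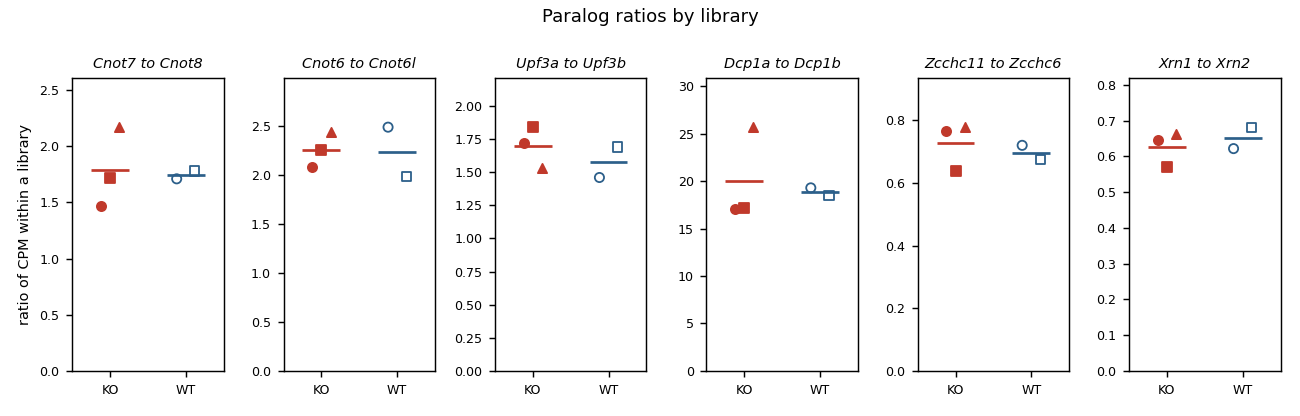
Ratio of CPM within each library for 6 paralog pairs (red filled, KO; blue open, WT; circle, square and triangle are replicates 1, 2 and 3; bars are means; each axis starts at 0). The groups overlap in every panel; the KO values of Dcp1a to Dcp1b, 17.1, 17.2 and 25.7, surround the WT values of 19.3 and 18.5.

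Levels were compared between genes only per kb of annotated exon, with the lengths of GENCODE M21 over all isoforms, which lowers the value of genes with long minor isoforms. Within the exosome this level ran from 1.43 CPM per kb in KO and 1.18 in WT for Exosc5 to 14.0 in KO and 13.6 in WT for Exosc10, leaving out Exosc6. Within CCR4-NOT the lowest levels were those of Cnot4 (2.67 in KO and 2.81 in WT) and Cnot3 (3.28 in KO and 2.80 in WT), and the highest that of Cnot6 (19.3 in KO and 19.7 in WT). Lsm5 had the highest CPM per kb of the set, at 36.9 in KO and 25.8 in WT, and Xrn2 followed at 23.2 in KO and 23.0 in WT. On this scale Dcp1a exceeded Dcp1b 15.4-fold in KO and 14.5-fold in WT, while Zcchc11 and Zcchc6 were nearly level, with ratios of 1.24 in KO and 1.18 in WT. Cnot7, above Cnot8 in CPM, lay below it per kb, with ratios of 0.808 in KO and 0.792 in WT.

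The difference between KO replicates 3 and 1 moved with transcript composition. Across the 49 genes, KO replicate 1 was the highest of the 5 libraries for 23 and KO replicate 3 was lower than KO replicate 1 for 32. The log2 ratio of KO replicate 3 over KO replicate 1 fell with the GC content of the longest protein-coding transcript, with Spearman's rho of -0.70 and Pearson's r of -0.61 across 49 genes. Over 12342 tested genes with such a transcript rho was -0.54 and r was -0.48. For KO replicate 2 over KO replicate 1 the relation to GC content was weaker, with rho of -0.21 across the 49 genes and -0.08 over all genes. This is a relation across genes of the same libraries, and genes are not independent replicates. Of the 21 genes with a GC content of at least 50%, 19 were lower in KO replicate 3 than in KO replicate 1, with a median log2 ratio of -0.48, against 13 of 28 and a median of 0.03 for genes under 50%. Transcript length moved with the ratio of KO replicate 3 over KO replicate 1 as well (rho 0.54 across the 49 genes and 0.21 over all genes), and GC content and length were related among the members (rho -0.36). Lsm5, with a GC content of 36.6% and a transcript of 494 bases, was the clear exception to the GC relation, at -1.15.

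The start of the coding sequence is shown for the genes with the lowest (Lsm4, Exosc5) and highest (Cnot7, Zcchc11) such ratios, to make that composition visible. The sequences are the first 60 coding bases of the longest protein-coding GENCODE M21 transcript (GRCm38), and capitals mark G and C. Lsm4 lies on chromosome 8, 70673248 to 70678752, plus strand, and Exosc5 on chromosome 7, 25659164 to 25671368, plus strand. Zcchc11 lies on chromosome 4, 108459426 to 108559421, plus strand, and Cnot7 on chromosome 8, 40492540 to 40515847, minus strand.
Lsm4: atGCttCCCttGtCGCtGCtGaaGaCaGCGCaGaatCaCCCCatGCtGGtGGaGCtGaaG
Exosc5: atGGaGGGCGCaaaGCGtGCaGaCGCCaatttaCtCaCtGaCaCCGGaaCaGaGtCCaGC
Cnot7: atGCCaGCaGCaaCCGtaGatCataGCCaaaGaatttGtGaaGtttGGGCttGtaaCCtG
Zcchc11: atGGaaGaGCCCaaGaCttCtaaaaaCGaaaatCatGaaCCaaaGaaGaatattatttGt

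Of these 60 bases, 34 are G or C in Lsm4 and in Exosc5, 27 in Cnot7 and 19 in Zcchc11. Over the whole coding sequence the GC content was 62.6%, 59.3%, 41.9% and 41.7% in that order. The fold change of KO over WT had a weaker relation to GC content, with rho 0.29 across the 49 genes and 0.32 over all genes. With the trend on transcript GC and length removed from each library, an alternative chosen after seeing the data, 0 of 49 genes were called and the log2 fold changes ran from -0.25 to 0.33.

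**Figure D5:**
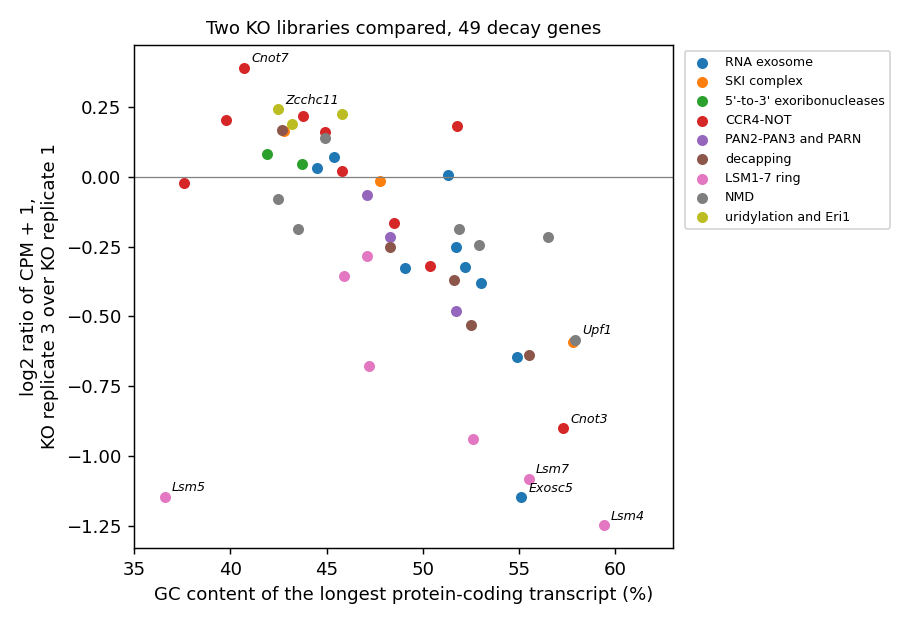
Log2 ratio of CPM + 1 in KO replicate 3 over KO replicate 1 (y axis) against GC content of the longest protein-coding transcript in percent (x axis) for the 49 tested genes, coloured by decay group. The ratio is -1.25 for Lsm4 and 0.39 for Cnot7, and Lsm5 lies apart at the lower left.

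How far several members stood from WT depended on single KO libraries. Without KO replicate 3, Skiv2l had a log2 fold change of 0.54, Exosc4 of 0.60, Edc4 of 0.50, Lsm5 of 0.69 and Upf1 of 0.40. These 5 genes then had an unadjusted p under 0.05 (limma), from 0.00585 for Skiv2l to 0.0355 for Lsm5, and 0 passed after adjustment over every gene tested, where the share of all genes was 0.0543% (smallest adjusted p = 0.285, limma). In that comparison 8.06% of all genes were higher at an unadjusted p under 0.05, so 5 of 49 is near the background. Of the 49, 10 had both KO libraries above both WT libraries and 5 had both below, against 23.6% and 18.1% of all genes. Leaving out KO replicate 1 instead lowered the log2 fold changes, to 0.25 for Skiv2l, 0.28 for Exosc4, 0.18 for Edc4, 0.12 for Lsm5 and 0.11 for Upf1. Without KO replicate 2 that of Upf1 was 0.04, and without WT replicate 2 it was 0.10 for Upf1 and 0.21 for Edc4. KO replicates 1 and 2 share a high Xist level with WT replicate 2, and KO replicate 3 a low level with WT replicate 1. Within the libraries of high Xist the mean of KO replicates 1 and 2 exceeded WT replicate 2 by 0.61 in log2 for Skiv2l and 0.67 for Exosc4. Within those of low Xist, KO replicate 3 minus WT replicate 1 was -0.09 for Skiv2l and 0.01 for Exosc4. The median over the 49 genes was 0.13 within high and -0.12 within low Xist, against 0.03 and -0.02 over all genes. The low-Xist comparison has 1 library per genotype and no replicate check. Depth moves with this split as well, since KO replicate 3 is the shallowest library, and the part of Xist status, depth and composition in these differences was not tested beyond the values given.

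The wider decay pathway was described through 58 cofactor genes in 5 lists, all of which were measured. None had an adjusted p under 0.05 (limma), and 2 had an unadjusted p under 0.05, both higher in KO, against 1.5% of all genes. Btg1, an antiproliferative gene whose product binds the CAF1 deadenylases, had 36.65, 30.10 and 33.39 CPM in KO, against 24.67 and 23.70 CPM in WT. Its log2 fold change was 0.44 (SE 0.14, unadjusted p = 0.0169, adjusted p = 1, limma). Zfp36l1, which brings CCR4-NOT to AU-rich messages, had 152, 149 and 153 CPM in KO, against 119.50 and 123 CPM in WT, a log2 fold change of 0.32 (SE 0.12, unadjusted p = 0.0304, adjusted p = 1, limma). Both stood above WT in each of 3 KO libraries, as did 8 of the 58 cofactors, against 7.85% of all genes, while 3 lay below, against 6.98%. By the authors' deposited table, a p-value under 0.05 was found for 2 cofactors, Btg1 (log2 fold change 0.47, p-value 0.0324) and the helicase gene Mov10 (0.61, p-value 0.0335), each with an FDR of 1.

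In the other cofactor lists no gene had an unadjusted p under 0.05 (limma). Mov10, whose product binds Upf1, had 30.41, 24.51 and 17.35 CPM in KO and 15.35 and 16.22 CPM in WT, with the same order of KO libraries as Skiv2l and Edc4. Eif4a3, a core component of the exon junction complex, had 73.97, 66.74 and 54.03 CPM in KO and 54.39 and 49.11 CPM in WT. The lists' median log2 fold changes were 0.05 for exosome cofactors, 0.01 for deadenylation cofactors, 0.08 for decapping cofactors, 0.13 for NMD and exon junction cofactors and 0.00 for tailing and histone message partners. Within the first list Papd7, a noncanonical poly(A) polymerase, had a log2 fold change of -0.18 and Zcchc7, a zinc finger partner in nuclear surveillance, also -0.18. Lsm8, which replaces Lsm1 in the nuclear ring, had 0.16, and Pnrc1, a decapping coactivator, had -0.24. Slbp, which binds the stem-loop of histone messages, had 0.12, and Lsm10, of the histone-processing ring, had -0.09. None of these genes passed the test.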

How the data were processed

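The deposited values are a signal per gene and library: CPM relative to an effective library size, which the authors rounded to 2 decimals. Per the submitters' processing notes they used HISAT2 2.1.0, featureCounts and edgeR 3.20.1 with mm10. Annotation release, strand setting and the handling of reads matching more than 1 gene: not given in the sources used here. Also deposited were log2 values (fold change, mean level), a score from a likelihood ratio test, and a p-value with its FDR; these are quoted as the authors' own. Depth was worked out from the increments between low values. At a tolerance of 0.0055 CPM, which is wide beside the increments, 100.00% of values below 100 CPM were whole reads in each library. A stricter check did not find nearly all low values whole, so no count test was run. KO was compared with WT by limma 3.58.1 in R 4.3.3 (trend option) on log2(CPM + 1) over all 5 libraries, with no covariate, for genes reaching 0.5 CPM in 2 or more libraries. P-values are two-sided and adjusted by Benjamini-Hochberg over 14884 genes, with a threshold of 0.05. The fit was also run on simulated data with independent noise of equal size for every gene. Those data lack the library differences seen here, so that run does not show how the fit performs on these libraries. A pseudocount of 1 understates changes of low genes. The intervals of the log2 fold changes come from limma and rest on the spread between libraries. The part of counting error in that spread was not separated. Members, cofactor lists, markers and the naming rule were chosen with earlier results of these data known. Named were, per group, the 4 members with the smallest p, those with the highest and lowest log2 fold change, and 18 core enzymes and scaffolds; per cofactor list, the 2 with the smallest p. Other members are given by value. Gene lengths, GC content and positions come from GENCODE M21 (GRCm38), in which 98.8% of gene IDs matched without version. Paralog ratios were compared by exact permutation. Alternatives were other pseudocounts (0.5 and 5), no filter, other scalings, leaving out each library, a replicate block, a term for the Xist split and, added later, removal of the trend on GC content and length.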

Additional observations from a re-analysis of the deposited data

How the results depend on the processing

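No member was called under any of the 14 settings run with limma. Of all genes, 1 was called in the fit reported, and 0 with a pseudocount of 5, with no filter, with median-of-ratios size factors, with a term for the Xist split, or with the GC and length trend removed (added after seeing the data). With the replicate number as a block 390 genes were called, none of them a member. In that fit 9 members had an unadjusted p under 0.05, all higher in KO (limma), against 14.2% of all genes. The smallest adjusted p was 0.0572, for Skiv2l (limma). No WT library carries the number 3, so KO replicate 3 did not enter the genotype difference of the block fit. The block log2 fold changes therefore equal those without KO replicate 3, such as 0.60 for Exosc4 and 0.54 for Skiv2l. The block is thus not a separate check, and little library-to-library spread was left for its p-values. Over the tested genes, deviations from the genotype mean had a Pearson's r of 0.41 between the libraries numbered 1 and 0.54 between those numbered 2. With 2 WT libraries the WT deviations mirror each other, so r with the other WT library only reverses in sign. The KO deviations of each gene also cancel out, and for KO replicate 3 r was -0.04 with WT replicate 1 and 0.04 with WT replicate 2. The r values of the libraries numbered 1 and 2 are therefore not separate evidence. The labels do not say what the number marks and only 2 pairs exist, so the pairing is not established. Leaving out 1 library gave 0 to 8 called genes, the 8 without KO replicate 3, and 37 to 49 members with an interval within -1 and 1, the 37 without WT replicate 1. All direction changes below are of small, uncalled values, and the cause was not tested. Scaling by the column sum without mitochondrial rRNAs and Rn7sk moved the median of all genes to -0.05 and of the members to -0.06, left 0 members above and 3 below both WT libraries, and gave -0.11 for the SKI median, -0.05 for Xrn2, -0.01 for Cnot7, -0.02 for Cnot8, -0.05 for Pan3, -0.06 for Eri1, -0.04 for Exosc10, -0.03 for Cnot1 and -0.02 for Smg6. The block gave -0.06 for Cnot7, 0.08 for Dcp1b, 0.18 for Lsm7, 0.03 for Upf3a, -0.11 for Eri1 and -0.02 for Cnot1. Removing the GC and length trend gave 0.02 for Xrn1, -0.01 for Exosc10, 0.05 for Cnot6 and 0.03 for Cnot6l, the Xist term 0.02 for Cnot6, and median-of-ratios -0.01 for Eri1. Over the fits that leave out 1 library, no group median log2 fold change kept its sign except that of the Lsm ring, which ran from 0.02 (without WT replicate 2) to 0.27 (without KO replicate 3). The others ran from -0.06 to 0.14 for the exosome, -0.14 to 0.08 for SKI, -0.06 to 0.04 for the exoribonucleases, -0.09 to 0.14 for CCR4-NOT, -0.10 to 0.14 for PAN2-PAN3 and PARN, -0.12 to 0.12 for decapping, -0.14 to 0.02 for NMD and -0.11 to 0.09 for uridylation and Eri1. The log2 fold change crossed 0 for Exosc3 (-0.03 to 0.39), Exosc5 (-0.08 to 0.49), Exosc10 (-0.06 to 0.13), Wdr61 (-0.16 to 0.08), Xrn1 (-0.10 to 0.05), Xrn2 (-0.06 to 0.10), Cnot1 (-0.10 to 0.17), Cnot3 (-0.07 to 0.38), Cnot6 (-0.17 to 0.11), Cnot6l (-0.10 to 0.05), Cnot7 (-0.06 to 0.14), Cnot8 (-0.06 to 0.15), Pan2 (-0.35 to 0.24), Pan3 (-0.10 to 0.14), Dcp1a (-0.18 to 0.11), Dcp1b (-0.18 to 0.08), Lsm7 (-0.36 to 0.18), Upf3a (-0.12 to 0.03), Smg6 (-0.03 to 0.12), Eri1 (-0.11 to 0.16) and the cofactor Lsm8 (-0.01 to 0.34). Among paralog ratios it crossed 0 for Cnot7 to Cnot8 (-0.14 to 0.14), Cnot6 to Cnot6l (-0.14 to 0.18), Dcp1a to Dcp1b (-0.14 to 0.16) and Xrn1 to Xrn2 (-0.12 to 0.01). No group of libraries was large enough to test for an outlying library. With 27 to 107 reads per library, Dcp1b is the member most limited by depth.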
